A study of Mus musculus with 6 samples.

Results

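The 83 genes described here encode nuclear subunits of the mitochondrial respiratory chain and ATP synthase. They were taken by gene symbol, as every probe set annotated to 1 symbol beginning with Nduf followed by a, b, c, s or v and a number, the symbols Sdha to Sdhd, Cyc1 and Cycs, and symbols beginning with Uqcr, Cox4 to Cox8 or Atp5. Where several such probe sets measured a gene, that with the greatest average intensity stood for it, which left 83 of the 19938 genes on the array with a probe set of their own. By complex there were 33 genes of complex I, 4 of complex II, 9 of complex III, 1 for cytochrome c, 19 of complex IV and 17 of complex V. Ndufa4 and Ndufa4l2 were counted with complex IV, where the Ndufa4 protein is now placed.

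The study compared cortical neural progenitor cells with the neurons derived from them, purified from the brain of C57BL/6J mice by fluorescence-activated cell sorting with 2 reporters. The GFP+ group held 3 samples of cortical neural progenitors, labelled as being at the progenitor stage. The RFP+ group held 3 samples of neuronal progeny, labelled as differentiated, and their labels name the brain but not the cortex. Neither group was treated, and all 6 samples were of the same strain. The age of the mice, the promoters that drove the reporters and the number of animals behind a sample are not given in the sources used here. Each sample was total RNA on 1 Affymetrix whole-transcript array, so nothing states that the samples of a group came from separate animals, and p-values measure the spread between these samples, which may be technical.

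The sorted cells carried the markers their labels name. All 10 cortical progenitor markers were higher in GFP+ cells (median log2 difference 2.10) and all 10 neuronal markers were higher in RFP+ cells (median log2 difference -1.69). Markers of other cell types also differed. Endothelial markers were higher in GFP+ cells for 8 of 8 genes, pericyte and mural markers for 7 of 8, oligodendrocyte lineage markers for 4 of 5 and inhibitory neuron markers for 2 of 6, all 6 of which were positive (median log2 difference 0.53). No microglial marker (of 8) and no erythroid marker (of 5) passed the test, but the 5 erythroid markers were all positive (median log2 difference 0.49) and 2 were higher in GFP+ cells with the replicate number as a block. The part of these cells in the results was not tested. Array medians lay between 210.3 and 221 intensity units and the highest values between 28533 and 34227. As a level near background, the 95th percentile of the means of 1015 olfactory receptor genes was taken, 211 in GFP+ cells and 206 in RFP+ cells. By this level 6 of the 83 genes were near background in both groups, 1 (Ndufa4l2) in RFP+ cells alone, and 76 were above it in both. In bulk samples of this kind, fewer cells of a type and less RNA per cell cannot be told apart.

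The respiratory chain sits in the inner mitochondrial membrane. Complex I takes electrons from NADH and complex II from succinate, and both pass them to ubiquinone. Complex III carries them on to cytochrome c, and complex IV from there to oxygen, and the protons pumped on the way drive ATP synthesis by complex V. Neural progenitors are known to rely heavily on glycolysis, whereas neurons depend on oxidative phosphorylation, which makes the chain a standard point of comparison between them. Some subunits, many of them core ones, are encoded in mitochondrial DNA and all others in the nucleus. The assembly of complexes I, III, IV and V therefore needs both genomes.

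Differences of 3 arrays against 3 are given as log2(intensity + 16) in GFP+ cells minus that in RFP+ cells, with the standard error (SE) from limma, and a gene was called where its Benjamini-Hochberg adjusted p over all 19938 genes was under 0.05. Folds are those of intensity + 16. For most chain subunits the difference between GFP+ and RFP+ cells was under 1.5-fold, and those that passed the test were higher in GFP+ cells. Of the 83 genes, 11 (13.3%) were higher in GFP+ cells, none was higher in RFP+ cells and 72 did not pass. Over all 19938 genes, 13.8% were higher in GFP+ cells and 16.2% in RFP+ cells. The share of chain genes called higher in GFP+ cells was therefore near the background. At an unadjusted limma p under 0.05, 21 chain genes (25.3%) were higher in GFP+ cells and 4 (4.82%) in RFP+ cells, against 18.0% and 22.6% of all genes. Arrays with the same replicate number deviated together, and with the replicate number as a block the counts were 22 (26.5%) higher in GFP+ cells and 4 (4.82%) higher in RFP+ cells, against 16.7% and 20.3% of all genes. The count of 11 became 5 without the GFP+ array numbered 1, 19 without the GFP+ array numbered 3, 7 without the RFP+ array numbered 1 and 3 without the RFP+ array numbered 3, and 2 without both arrays numbered 1.

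In size, the differences were small and mostly on the GFP+ side. The median log2 difference of the 83 genes was 0.23, with a range of -0.52 to 2.79, and the median of all genes was -0.08. The difference was positive for 63 genes and negative for 20, so that 75.9% were positive, against 44.5% of all genes. It lay within 1.5-fold in either direction for 73 genes (88.0%, against 70.9% of all genes), and reached 2-fold for 2 genes, Ndufa4l2 and Uqcr10 (2.41%, against 13.0% of all genes). The 95% confidence interval excluded a 2-fold difference in either direction for 71 genes (85.5%, against 67.9% of all genes). All 3 GFP+ arrays lay above all 3 RFP+ arrays for 22 genes, where 19.9% of all genes did so, and all 3 RFP+ arrays lay above all 3 GFP+ arrays for 6, where 24.1% of all genes did. Among the 4702 genes with a mean of at least 1000 units over the 6 arrays, 13.9% were higher in GFP+ cells and 21.0% in RFP+ cells. Of the 59 chain genes at that level, 3 were higher in GFP+ cells (5.08%) and none in RFP+ cells. With the block these counts were 13 (22.03%) and 2 (3.39%), against 18.8% and 25.8% of all genes at that level, so the GFP+ share lay below the background without the block and above it with the block.

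**Figure D1:**
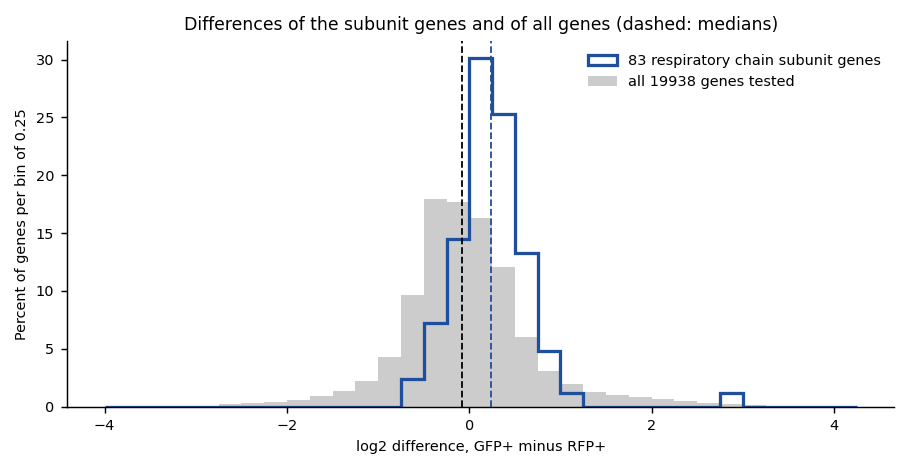
Distribution of the log2 difference (GFP+ minus RFP+, horizontal axis) over the 83 chain genes and over all 19938 genes. The chain genes are gathered around their median of 0.23, to the right of the median of all genes at -0.08, and few lie beyond 2-fold.

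By complex, the median log2 difference was 0.21 for complex I, 0.39 for complex II, 0.47 for complex III, -0.02 for cytochrome c, 0.24 for complex IV and 0.22 for complex V. The called genes were spread as 3 of complex I, 1 of complex II, 3 of complex III, 3 of complex IV and 1 of complex V. With the block, the genes higher in GFP+ cells were 8 of complex I, 1 of complex II, 5 of complex III, 5 of complex IV and 3 of complex V, and those higher in RFP+ cells 3 of complex I and 1 of complex IV. A positive difference was seen for 25 of 33 genes of complex I, 4 of 4 of complex II, 7 of 9 of complex III, 14 of 19 of complex IV and 13 of 17 of complex V. The differences between complexes were not tested.

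**Figure D2:**
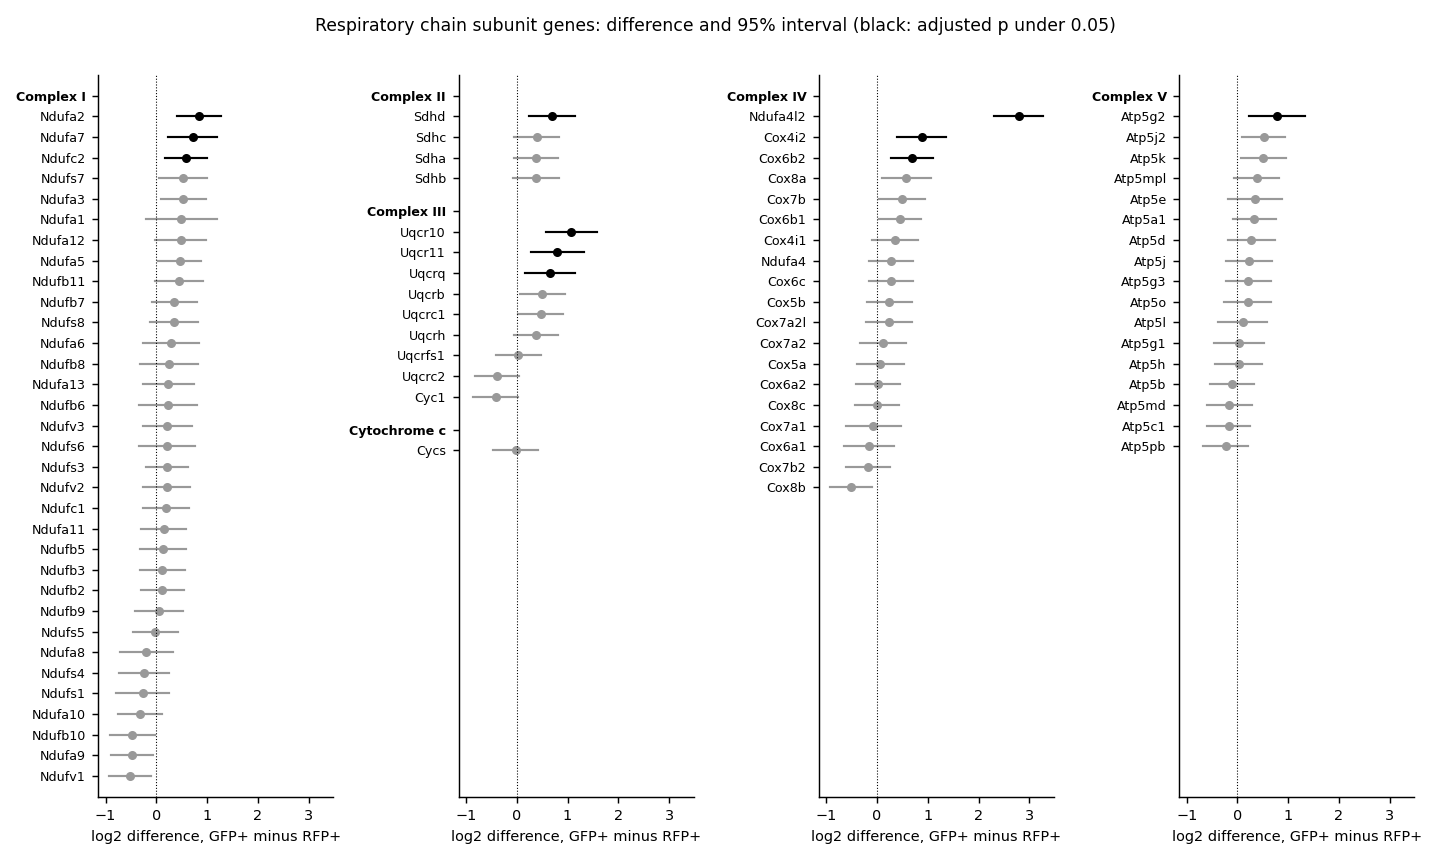
Log2 difference (GFP+ minus RFP+) of each of the 83 genes, by complex, with its 95% confidence interval. The 11 genes that passed the test are marked, all of them on the GFP+ side, and Ndufa4l2 stands alone at 2.79.

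Promoter windows were searched for 7 motifs, since transcription factors such as NRF1, GABP and YY1 are known to act on nuclear genes of the chain. RefSeq promoter windows (GRCm38.p6, from 250 bases before to 50 bases after the start site) were matched for 67 of the 83 genes. The nuclear respiratory factor 1 (NRF1) core (GCGCA, any base, then GCGC), read on both strands as were the others, was found for 16 of them (23.9%), against 7.85% of all genes with a window and 14.4% of those with a mean of at least 1000 units. The YY1 core AAGATGGC was found for 10 (14.9%), against 3.77% of all genes and 6.66% of the bright ones. The ETS core CCGGAAG, which GABP can bind, was found for 17 (25.4%), against 13.6% and 22.6%. The SP1 motif GGGCGG was found for 41.8%, against 52.9% of all genes and 74.1% of the bright ones, and CCAAT for 44.8%, against 41.7% and 42.8%. The ERR motif AAGGTCA was found for 10.4%, against 4.48% and 3.36%, and the TATA motif TATAAA for 11.9%, against 13.6% and 8.14%. Each motif was absent from most of the 67 genes' windows. Of the 7 called genes with a window, 2 had the NRF1 core, 2 the ETS core and none the YY1 core. Of the 16 genes with a negative difference and a window, 4 had the NRF1 core, 2 the ETS core and 3 the YY1 core. These matches are a description of letters in a window and not of bound sites. The windows of 4 genes are given 5′ to 3′ on the coding strand, with every match to the NRF1, YY1 or ETS core in capitals. They are Uqcr10 (chr11:4704295-4704594, minus strand), the only called gene beyond 2-fold that was above background in both groups, which holds none of the 3 cores. Sdhd (chr9:50603800-50604099, minus strand) holds an NRF1 core whose first base is at -79 from the start site and an ETS core at -46, that one read on the opposite strand. Atp5g2 (chr15:102670998-102671297, minus strand) holds an NRF1 core at -42. Ndufa9 (chr6:126849095-126849394, minus strand), with a difference on the RFP+ side, holds a YY1 core at 29 bases after the start.
Uqcr10: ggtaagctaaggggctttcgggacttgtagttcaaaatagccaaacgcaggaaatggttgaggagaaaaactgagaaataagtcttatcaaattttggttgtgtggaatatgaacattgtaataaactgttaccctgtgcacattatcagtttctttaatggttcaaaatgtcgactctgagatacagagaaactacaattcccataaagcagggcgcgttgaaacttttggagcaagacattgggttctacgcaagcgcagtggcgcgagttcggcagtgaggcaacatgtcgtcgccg
Sdhd: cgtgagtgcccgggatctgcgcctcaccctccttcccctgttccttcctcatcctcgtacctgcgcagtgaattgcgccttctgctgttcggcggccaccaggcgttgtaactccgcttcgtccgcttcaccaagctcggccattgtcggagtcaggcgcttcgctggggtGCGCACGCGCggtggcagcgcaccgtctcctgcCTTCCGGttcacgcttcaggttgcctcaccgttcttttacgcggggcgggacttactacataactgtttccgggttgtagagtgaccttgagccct
Atp5g2: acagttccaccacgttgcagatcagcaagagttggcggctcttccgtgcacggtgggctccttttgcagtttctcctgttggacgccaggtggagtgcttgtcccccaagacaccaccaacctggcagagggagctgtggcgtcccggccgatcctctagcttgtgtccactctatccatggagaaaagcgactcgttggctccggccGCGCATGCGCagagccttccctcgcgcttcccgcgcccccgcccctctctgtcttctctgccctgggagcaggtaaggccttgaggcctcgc
Ndufa9: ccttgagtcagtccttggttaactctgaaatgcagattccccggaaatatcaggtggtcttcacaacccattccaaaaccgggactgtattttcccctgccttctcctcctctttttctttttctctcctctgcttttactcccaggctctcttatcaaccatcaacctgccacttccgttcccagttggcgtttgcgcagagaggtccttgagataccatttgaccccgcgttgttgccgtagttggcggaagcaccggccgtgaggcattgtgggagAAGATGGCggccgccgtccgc

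In complex I, 3 accessory subunits of the membrane and peripheral arms were higher in GFP+ cells, and none of the 6 core genes passed the test. Of the 27 accessory genes 3 (11.1%) were higher in GFP+ cells, below the 13.8% of all genes, and none in RFP+ cells. With the block these counts were 7 (25.9%) and 2 (7.41%), against 16.7% and 20.3% of all genes. Their median log2 difference was 0.22. Of the 6 core genes none was called in either direction, 1 was called in each direction with the block, and their median log2 difference was 0.20. The difference between accessory and core genes was not tested.

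Ndufa2, an accessory subunit of the peripheral arm, had 1232, 991 and 942 intensity units on the GFP+ arrays, against 571, 668 and 513 on the RFP+ arrays. Every GFP+ value lay above every RFP+ value, and the log2 difference was 0.83 ± 0.21 SE, 1.78-fold, limma adjusted p = 0.00415. The call held without each single array, and was lost without both arrays numbered 1 (adjusted p = 0.0745). Ndufa7, another accessory subunit of the peripheral arm, had 964, 569.7 and 550.0 intensity units on the GFP+ arrays, against 366, 472 and 374 on the RFP+ arrays. Again no RFP+ value reached a GFP+ value, the GFP+ array numbered 1 was far above the other GFP+ arrays, and the log2 difference was 0.72 ± 0.23 SE (limma adjusted p = 0.0238), a call that was lost without the GFP+ array numbered 1 or without the RFP+ array numbered 1 or 3. Ndufc2, a subunit of the membrane arm, had 4648, 5122 and 4144 intensity units on the GFP+ arrays, against 2987, 3204 and 3081 on the RFP+ arrays. All GFP+ values were above all RFP+ values, with a log2 difference of 0.58 ± 0.20 SE (limma adjusted p = 0.0330), and the call was lost on leaving out any array other than the GFP+ array numbered 3.

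Among the core subunits, Ndufv1, which binds NADH and FMN, lay on the other side. Ndufv1 had 1306, 1112 and 1202 intensity units on the GFP+ arrays, against 1676, 1766 and 1756 on the RFP+ arrays. Every RFP+ value was above every GFP+ value, the log2 difference was -0.52 ± 0.20 SE (limma adjusted p = 0.0519), and with the block the adjusted p was 0.0291. Ndufs7, which carries an iron-sulphur cluster next to the ubiquinone site, lay on the GFP+ side. Its log2 difference was 0.53 ± 0.23 SE (limma adjusted p = 0.0841, and 0.0255 with the block), and the groups overlapped. Ndufs1, the largest core subunit, had a log2 difference of -0.27 (adjusted p = 0.419). The log2 differences of Ndufs3, Ndufs8 and Ndufv2 were 0.21, 0.35 and 0.20, with limma adjusted p-values of 0.458, 0.254 and 0.526.

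With the block, 8 genes of complex I were higher in GFP+ cells and 3 in RFP+ cells. Those on the RFP+ side were Ndufv1 and the accessory subunits Ndufa9 and Ndufb10, which were named for this after their values were seen. Ndufa9, which lies near the ubiquinone site, had 1343, 1186 and 1155 intensity units on the GFP+ arrays, against 1689.8, 1709 and 1774 on the RFP+ arrays. The groups did not overlap, and the log2 difference was -0.49 ± 0.20 SE (limma adjusted p = 0.0674, and 0.0364 with the block). Ndufb10, a membrane arm subunit, had 273, 365 and 320.4 intensity units on the GFP+ arrays, against 377, 554 and 425 on the RFP+ arrays. Every RFP+ value was above every GFP+ value, and the log2 difference was -0.47 ± 0.21 SE (limma adjusted p = 0.103, and 0.0383 with the block). The genes on the GFP+ side that passed only with the block were Ndufa3, Ndufa5, Ndufa12, Ndufb11 and Ndufs7.

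Complex II, or succinate dehydrogenase, also belongs to the citric acid cycle, and all its subunits are nuclear. Its 4 genes had log2 differences of 0.38 to 0.69, all on the GFP+ side, and 1 of them passed the test. Sdhd, a membrane anchor of the complex, had 1208, 847 and 718 intensity units on the GFP+ arrays, against 576, 550.3 and 531 on the RFP+ arrays. No RFP+ value reached a GFP+ value, the GFP+ array numbered 1 was the highest, and the log2 difference was 0.69 ± 0.22 SE, 1.62-fold, limma adjusted p = 0.0206. This call was lost without the GFP+ array numbered 1 or without the RFP+ array numbered 2 or 3. Sdha, the flavoprotein that oxidises succinate, had 2798, 2910.0 and 3402 intensity units on the GFP+ arrays, against 2089, 2154 and 2769.6 on the RFP+ arrays. Its groups did not overlap either, and the log2 difference was 0.38 ± 0.21 SE (limma adjusted p = 0.171). The iron-sulphur subunit Sdhb and the other anchor Sdhc had log2 differences of 0.38 and 0.40 (limma adjusted p = 0.196 and 0.167).

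In complex III, 3 small subunits were higher in GFP+ cells (33.3% of its 9 genes, against 13.8% of all genes). Uqcr10, a small accessory subunit of the complex, had 1609, 1079 and 826 intensity units on the GFP+ arrays, against 471, 654 and 479.7 on the RFP+ arrays. Each GFP+ value was above each RFP+ value, and the GFP+ array numbered 1 was the highest. The log2 difference was 1.07 ± 0.24 SE, 2.10-fold, with limma adjusted p = 0.00183. Without each single array in turn the adjusted p was at most 0.0161, and without both arrays numbered 1 it was 0.0750. Uqcr11, another small subunit, had 748, 406 and 387 intensity units on the GFP+ arrays, against 251, 356 and 234 on the RFP+ arrays. GFP+ and RFP+ values did not overlap, but the GFP+ array numbered 1 stood far above the others, and the log2 difference was 0.80 ± 0.25 SE (limma adjusted p = 0.0202), lost without the GFP+ array numbered 1 or without the RFP+ array numbered 1 or 3. A second probe set of Uqcr11 gave a log2 difference of 0.14, and the call was lost on the mean of the probe sets. Uqcrq, a small subunit also known as the ubiquinone-binding protein QP-C, had 2226, 1793 and 1321 intensity units on the GFP+ arrays, against 971, 1486 and 916 on the RFP+ arrays. The RFP+ array numbered 2 lay above the lowest GFP+ array, so the groups overlapped, and the log2 difference was 0.66 ± 0.24 SE (limma adjusted p = 0.0430). That call was lost without the GFP+ array numbered 1 or 2 or the RFP+ array numbered 1 or 3.

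The electron-carrying and core subunits of complex III were not called. Cyc1, the cytochrome c1 subunit that hands electrons to cytochrome c, had 2304, 2528 and 1752 intensity units on the GFP+ arrays, against 3325, 2944 and 2505 on the RFP+ arrays. RFP+ values were mostly the higher, the groups overlapped, and the log2 difference was -0.42 ± 0.21 SE (95% confidence interval -0.86 to 0.03, limma adjusted p = 0.146). Uqcrc2, a core subunit, had 2412, 3264 and 3118 intensity units on the GFP+ arrays, against 3811, 3363 and 4252 on the RFP+ arrays. Every RFP+ value lay above every GFP+ value, and the log2 difference was -0.38 ± 0.21 SE (limma adjusted p = 0.175). Uqcrc1, its partner core subunit, had a log2 difference of 0.47 on the other side (limma adjusted p = 0.0983, and 0.0468 with the block). The Rieske iron-sulphur protein Uqcrfs1 had a log2 difference of 0.03 (limma adjusted p = 0.930). With the block, 5 genes of complex III were higher in GFP+ cells, the additional ones being Uqcrb and Uqcrc1.

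Cycs, the somatic cytochrome c that shuttles electrons between complexes III and IV, had 2455, 2860.1 and 1960.2 intensity units on the GFP+ arrays, against 2582, 2518 and 2227 on the RFP+ arrays. The groups overlapped throughout, and the log2 difference was -0.02 ± 0.21 SE (95% confidence interval -0.46 to 0.41, limma adjusted p = 0.941).

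Complex IV, cytochrome c oxidase, has several subunits with paralogues known to be used in different tissues, and the largest log2 difference among the 83 genes was that of such a paralogue. Ndufa4l2, the hypoxia-inducible paralogue of Ndufa4, had 351, 247 and 210.0 intensity units on the GFP+ arrays, against 20.8, 36.2 and 18.2 on the RFP+ arrays. All RFP+ values were near background, and each GFP+ value was far above each RFP+ value, although the lowest GFP+ value lay at the level taken as near background. The means were 269 ± 73.1 units in GFP+ cells and 25.1 ± 9.74 units in RFP+ cells (SD, n = 3 each). The log2 difference was 2.79 ± 0.23 SE (limma adjusted p = 1.97e-08), a size that depends on the offset, being 3.40 with an offset of 1 and 1.89 with an offset of 64. Cox4i2, the paralogue of Cox4i1 known from lung and from low oxygen, had 509, 750.1 and 696 intensity units on the GFP+ arrays, against 420.5, 386 and 248 on the RFP+ arrays. The groups did not overlap, and the log2 difference was 0.88 ± 0.23 SE, 1.83-fold (limma adjusted p = 0.00675), which was lost without the RFP+ array numbered 3 (adjusted p = 0.0557). Their widely expressed counterparts did not pass the test. Ndufa4 had a log2 difference of 0.28 (limma adjusted p = 0.323) and Cox4i1 of 0.35 (limma adjusted p = 0.226), and the differences between the paralogues were not tested.

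Both Ndufa4l2 and Cox4i2 are also known from brain pericytes, whose markers were higher in the same group. The summed level of the 8 pericyte and mural markers was 5349.8 to 7137 units on the GFP+ arrays and 1030.2 to 1170.0 units on the RFP+ arrays, and 7 of the 8 passed the test. The 8 endothelial markers, all called higher in GFP+ cells, summed to 1815.5 to 6042 units on the GFP+ arrays and 614 to 878 units on the RFP+ arrays. In RFP+ cells 7 markers of each list were near background, and none of either list was at 0. On the GFP+ arrays numbered 1, 2 and 3 the mural sum was 6749.6, 5349.8 and 7137 units and the endothelial sum 1815.5, 4151.5 and 6042 units. Among the GFP+ arrays, Ndufa4l2 was highest on that numbered 1 and lowest on that numbered 3, and Cox4i2 was lowest on that numbered 1 and highest on that numbered 2. The part of these cells in the result was not tested.

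**Figure D3:**
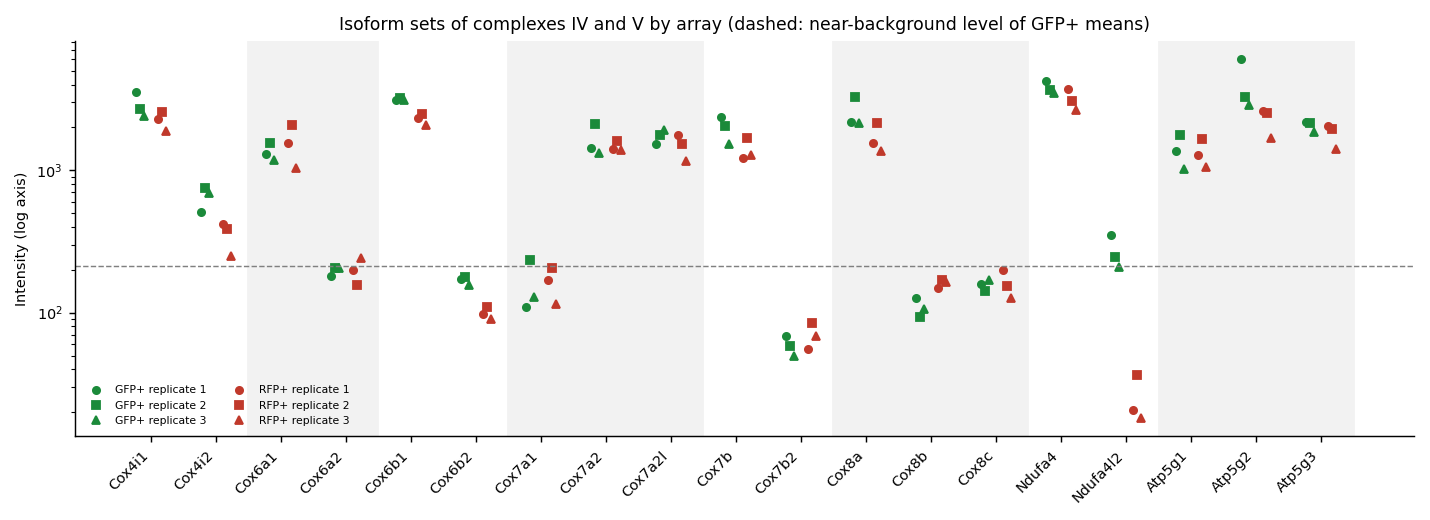
Intensity (log axis) of complex IV and complex V paralogues on each array, with GFP+ arrays left of RFP+ arrays and a dashed line at the near-background level of GFP+ means. Ndufa4l2 shows a wide gap between the groups and Cox4i2 a narrower one, while Cox4i1 and Ndufa4 overlap between the groups.

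The other complex IV paralogues were mostly close between the groups or near background. Cox6b2, known as a testis form, had 173, 177 and 157 intensity units on the GFP+ arrays, against 97.3, 109 and 90.9 on the RFP+ arrays. The groups did not overlap and the log2 difference was 0.69 ± 0.20 SE (limma adjusted p = 0.0119), but both means were near background, and the call was lost without the RFP+ array numbered 3. Cox6b1, its widely expressed counterpart, had a log2 difference of 0.46 (limma adjusted p = 0.0874, and 0.0437 with the block). Cox8a, the widely expressed form of the smallest subunit, had a log2 difference of 0.58 (limma adjusted p = 0.0651, and 0.0170 with the block). Cox8b, known from heart and skeletal muscle, had 127, 93.0 and 107 intensity units on the GFP+ arrays, against 149.8, 169.6 and 165 on the RFP+ arrays. Every RFP+ value was above every GFP+ value, with a log2 difference of -0.51 ± 0.20 SE (limma adjusted p = 0.0607, and 0.0409 with the block), but both means were near background. Of the 8 muscle markers, 3 were higher in RFP+ cells (and 1 in GFP+ cells with the block) and 6 were near background in both groups, and their part in the Cox8b values was not tested. The muscle forms Cox6a2 and Cox7a1, and Cox7b2 and Cox8c, were near background in both groups, with log2 differences of 0.01, -0.08, -0.18 and -0.00.

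Among the widely expressed forms, Cox6a1 had a log2 difference of -0.16, Cox7a2 of 0.12 and Cox7a2l, which is known for joining complexes III and IV, of 0.23. None of these passed the limma test, nor did Cox7b (0.49, adjusted p = 0.0985), Cox5a (0.06, adjusted p = 0.851) or Cox5b (0.24, adjusted p = 0.408).

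In complex V, which makes ATP, 1 of 17 genes (5.88%) was higher in GFP+ cells, below the 13.8% of all genes, and none in RFP+ cells. With the block 3 (17.6%) were higher in GFP+ cells, near the 16.7% of all genes, and none in RFP+ cells. Atp5g2, which encodes one of 3 precursors of the same membrane ring subunit c, had 6073, 3262 and 2869 intensity units on the GFP+ arrays, against 2616, 2535 and 1675 on the RFP+ arrays. All GFP+ values were above all RFP+ values, the GFP+ array numbered 1 was well above the others, and the log2 difference was 0.78 ± 0.26 SE, 1.72-fold (limma adjusted p = 0.0301). The call was lost without the GFP+ array numbered 1 or the RFP+ array numbered 3. The other subunit c genes, Atp5g1 and Atp5g3, had log2 differences of 0.04 and 0.22 (limma adjusted p = 0.916 and 0.460). The catalytic F1 head did not pass the test in either direction, with a median log2 difference of 0.27 over its 5 genes. Atp5b, the catalytic beta subunit, had 6444, 7896 and 7485 intensity units on the GFP+ arrays, against 6568, 7807 and 9162 on the RFP+ arrays. The groups overlapped throughout, and the log2 difference was -0.10 ± 0.21 SE (95% confidence interval -0.53 to 0.33, limma adjusted p = 0.745). Atp5a1, the alpha subunit, had 8872, 7249 and 7292 intensity units on the GFP+ arrays, against 6765, 5859 and 5889.6 on the RFP+ arrays. Its groups did not overlap, but the log2 difference of 0.33 ± 0.20 SE did not pass (limma adjusted p = 0.220). Atp5c1, the central stalk subunit, had a log2 difference of -0.17 (limma adjusted p = 0.553). The genes that passed only with the block, Atp5j2 and Atp5k, belong to the membrane part.

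**Figure D4:**
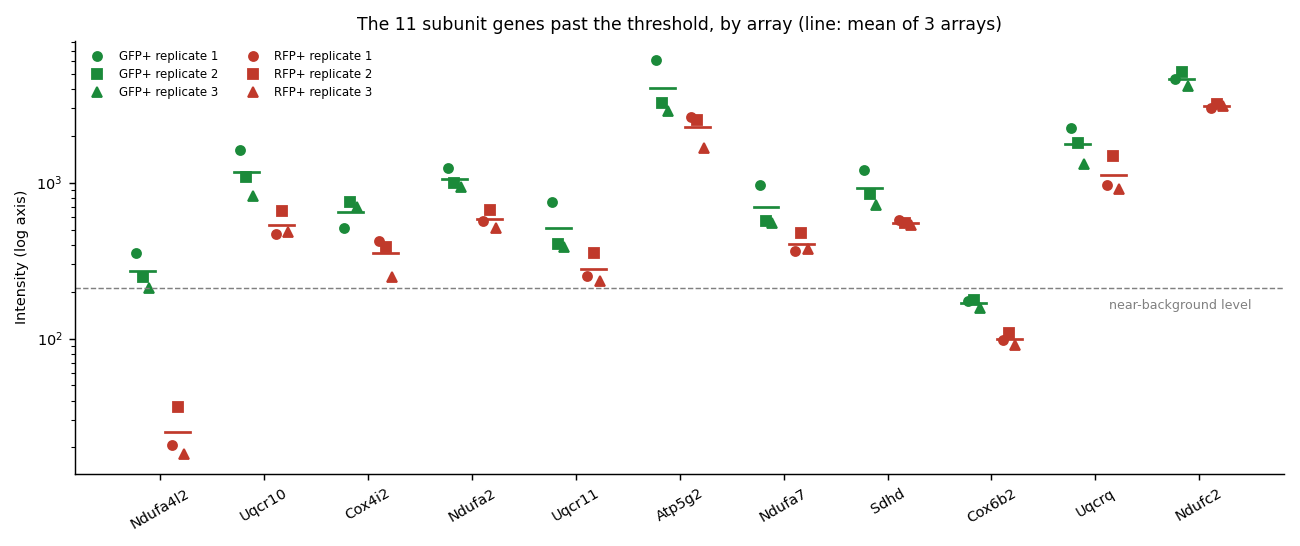
Intensity (log axis) of the 11 genes that passed the test, on each array, with the 3 GFP+ arrays left of the 3 RFP+ arrays, short lines at the group means and a dashed line at the near-background level. Ndufa4l2 shows the widest gap, Uqcrq is the one with overlapping groups, and the GFP+ array numbered 1 is the highest GFP+ point for 8 of the 11.

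The chain genes also shared a pattern over the arrays within each group. Set against each gene's mean over the 6 arrays, the median deviation of the 83 genes on the log2 scale was 0.19, 0.22 and -0.06 on the GFP+ arrays numbered 1, 2 and 3, and -0.07, 0.03 and -0.31 on the RFP+ arrays numbered 1, 2 and 3. The arrays numbered 3 were the lowest of their group in both groups for 45 of the 83 genes (54.2%), against 19.1% of all genes. The highest value of the GFP+ group was on the array numbered 2 for 43 genes, on that numbered 1 for 35 and on that numbered 3 for 5, and in the RFP+ group these counts were 48, 29 and 6. Those numbered 1 were the highest in both groups for 17 genes (20.5%), against 11.5% of all genes. Within the replicate numbers 1, 2 and 3, the median log2 difference of GFP+ minus RFP+ was 0.29, 0.24 and 0.24, with 59, 62 and 58 of 83 genes positive. Over all genes the median within the same numbers was -0.07, -0.04 and -0.11. The difference was positive in every number for 48 genes, negative in every number for 11 and mixed for 24. What the numbers stand for is not given in the sources used here.

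**Figure D5:**
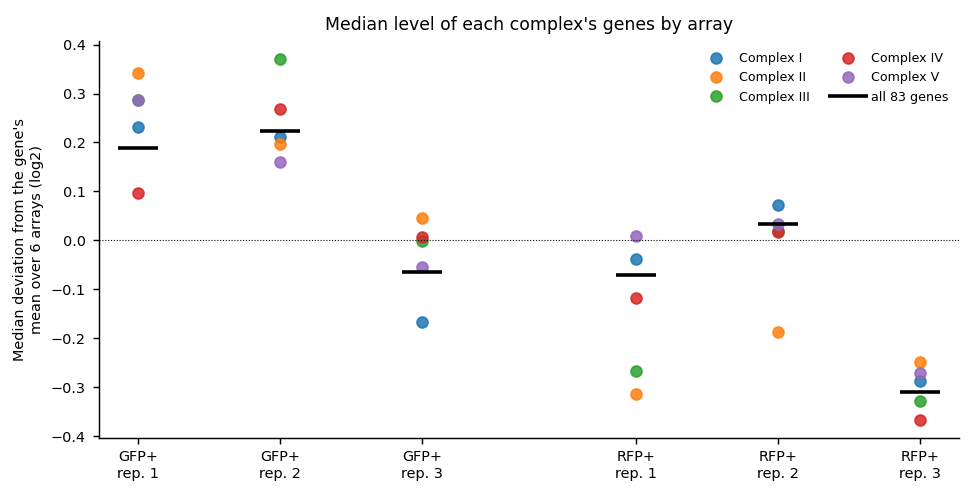
Median deviation of the chain genes from each gene's mean over the 6 arrays (log2 scale), by complex (points) and for all 83 genes (lines) on each array, with GFP+ arrays left of RFP+ arrays. The arrays numbered 3 are the lowest of their group for the 83 genes as a set, at -0.06 in GFP+ cells and -0.31 in RFP+ cells.

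Probe sets of the same gene mostly gave similar log2 differences, but they need not be independent measurements. Those of Atp5g2 that did not stand for the gene had identical values on every array. Their likeness is therefore no separate support for a call. Several probe sets measured 17 genes. Of these genes, 16 had differences of a single sign, and 13 had a range of log2 differences under 0.2. The probe sets of Atp5l gave both signs, with log2 differences of -0.10 to 0.15. Those of the called gene Uqcr11 gave 0.80 and 0.14, a range of 0.66.

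Genes around the chain were read from 8 further lists with 191 genes, of which 174 were measured. Of these, 23 (13.2%) were higher in GFP+ cells and 18 (10.3%) in RFP+ cells, against 13.8% and 16.2% of all genes, with a median log2 difference of 0.08. The GFP+ share was thus near the background, and with the block the counts were 31 (17.8%) and 23 (13.2%), against 16.7% and 20.3% of all genes. Where a group mean was near background, the size of a difference depends on the offset and no fold is given. Without single arrays these counts fell to 13 and 10. The count of 23 became 15 without the RFP+ array numbered 1 and 13 without that numbered 3. The count of 18 became 10 without the GFP+ array numbered 1, 10 without the RFP+ array numbered 1 and 11 without the RFP+ array numbered 3.

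Regulators of nuclear chain genes and of mitochondrial DNA were the list with the most calls, with a median log2 difference of 0.20. Of 27 genes, 10 (37.0%) were higher in GFP+ cells, against 13.8% of all genes. In RFP+ cells 3 (11.1%) were higher, below the 16.2% of all genes. Ppargc1a, a coactivator known to drive mitochondrial biogenesis, had 411, 525 and 399 intensity units on the GFP+ arrays, against 221, 228 and 140.0 on the RFP+ arrays. The 3 GFP+ values were all above the RFP+ values, the RFP+ mean was near background, and the log2 difference was 1.14 ± 0.22 SE (limma adjusted p = 5.05e-04). Gabpa, the DNA-binding part of GABP, had 2275, 2288 and 2663 intensity units on the GFP+ arrays, against 1499, 1399 and 1417 on the RFP+ arrays. Every GFP+ value was above every RFP+ value, with a log2 difference of 0.73 ± 0.20 SE (limma adjusted p = 0.00753). Nrf1, the factor that binds the NRF1 core, had a log2 difference of 0.54 ± 0.20 SE (limma adjusted p = 0.0461), and this call was lost without any single array. Tfb1m, which methylates mitochondrial ribosomal RNA, was higher in GFP+ cells by 1.17 ± 0.20 SE on the log2 scale (limma adjusted p = 1.42e-04), with the RFP+ mean near background. Tfam, which packages mitochondrial DNA, had a log2 difference of 0.13 (limma adjusted p = 0.728).

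On the other side, Esrra, the estrogen-related receptor alpha that acts with Ppargc1a, had 332, 289 and 255 intensity units on the GFP+ arrays, against 428, 448 and 484 on the RFP+ arrays. All RFP+ values were above all GFP+ values, the log2 difference was -0.61 ± 0.20 SE (limma adjusted p = 0.0257), and the call held only without the GFP+ array numbered 1 among the single arrays. Myc, a growth-promoting transcription factor, was 2.55-fold higher in RFP+ cells (limma adjusted p = 2.15e-04), and Top1mt, the mitochondrial topoisomerase, had a log2 difference of -0.92 ± 0.20 SE (limma adjusted p = 0.00129), with its GFP+ mean near background.

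Assembly factors insert cofactors and join subunits. Of 48 measured, 1 (2.08%) was higher in GFP+ cells and 5 (10.4%) in RFP+ cells, against 13.8% and 16.2% of all genes. The median log2 difference was -0.05. With the block the counts were 6 and 6 (12.5% each), against 16.7% and 20.3% of all genes. Bcs1l, which inserts the Rieske protein into complex III, was 1.76-fold higher in RFP+ cells (limma adjusted p = 0.00422). Lyrm7, which acts on the same protein, and Fmc1, a complex V assembly factor, passed on opposite sides with log2 differences of -0.73 and 0.72, but both genes were near background in both groups. Ndufaf5, Ndufaf7 and Ecsit were also called higher in RFP+ cells, with log2 differences of -0.66, -0.66 and -0.71 (limma adjusted p = 0.0243, 0.0272 and 0.0109). The Ndufaf5 and Ndufaf7 calls were lost without the GFP+ array numbered 1 or the RFP+ array numbered 1 or 3. Ndufaf5 was near background in GFP+ cells.

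Of the enzymes that feed electrons into the chain, and of genes listed with them, a few were called. The all-gene shares to set beside them are 13.8% higher in GFP+ cells and 16.2% in RFP+ cells. Of 9 donors to ubiquinone other than complexes I and II, 2 (22.2%) were higher in GFP+ cells and none in RFP+ cells. They were Gpd2, the mitochondrial glycerol-3-phosphate dehydrogenase (2.39-fold, limma adjusted p = 2.20e-04), and Etfa, a subunit of the electron transfer flavoprotein (1.88-fold, limma adjusted p = 0.00131). The citric acid cycle was listed together with genes of pyruvate use and its control, such as Pcx and the Pdk kinases. In this list 3 of 25 genes, Pcx among them, were higher in GFP+ cells and 1 in RFP+ cells (3 and 2 with the block). Suclg2, the GTP-forming subunit of succinyl-CoA ligase, had 997, 843 and 1106 intensity units on the GFP+ arrays, against 186, 144 and 207 on the RFP+ arrays. The groups were far apart, the RFP+ mean was near background, and the log2 difference was 2.36 ± 0.21 SE (limma adjusted p = 4.38e-08), or 2.46 with an offset of 1 and 2.11 with an offset of 64. Idh2 was 1.70-fold higher in GFP+ cells (limma adjusted p = 0.00604), and Idh3a, of the NAD-dependent isocitrate dehydrogenase, was 1.72-fold higher in RFP+ cells (limma adjusted p = 0.0121), a call lost without the GFP+ array numbered 1 or the RFP+ array numbered 3.

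Carriers of the inner membrane and the calcium uniporter were listed together with the outer membrane channels Vdac1, Vdac2 and Vdac3, which were not called. Calls went in both directions, with 3 of 19 genes (15.8%) higher in GFP+ cells and 5 (26.3%) in RFP+ cells. Of all genes, 13.8% and 16.2% were called in these directions. Slc25a13, the citrin form of the aspartate-glutamate carrier, had a log2 difference of 2.57 ± 0.24 SE (limma adjusted p = 6.40e-08), with its RFP+ mean near background. That difference was 2.86 with an offset of 1 and 1.98 with an offset of 64. Slc25a5, an ADP/ATP carrier, was 1.65-fold higher in GFP+ cells (limma adjusted p = 0.0101). Slc25a4, another ADP/ATP carrier, was called the other way, 1.585-fold higher in RFP+ cells (limma adjusted p = 0.0225). Slc25a12, another form of the aspartate-glutamate carrier, was 1.67-fold higher in RFP+ cells (limma adjusted p = 0.01475). Without the RFP+ array numbered 1 or 2 both of these calls were lost. That of Slc25a4 was also lost without the GFP+ array numbered 1, and that of Slc25a12 without that numbered 3. Slc25a22, a glutamate carrier, was 2.43-fold higher in RFP+ cells (limma adjusted p = 3.93e-05). Micu3, a regulator of the calcium uniporter known from neurons, was 1.97-fold higher in RFP+ cells (limma adjusted p = 0.00960), with overlapping groups and the call lost without the GFP+ array numbered 1 or the RFP+ array numbered 3.

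Of 22 genes of mitochondrial dynamics and cristae, 2 (9.09%) were higher in GFP+ cells and 3 (13.6%) in RFP+ cells (3 and 5 with the block). Without the block, 13.8% and 16.2% of all genes were called in these directions, so both shares lay below the background. Apool, a component of the cristae organising complex, was 2.33-fold higher (limma adjusted p = 1.44e-04) and Samm50, of the outer membrane sorting machinery, 1.69-fold higher (limma adjusted p = 0.00768) in GFP+ cells. Oma1, the stress-activated inner membrane protease, had a log2 difference of -2.31 ± 0.20 SE (limma adjusted p = 4.14e-08), with its GFP+ mean near background. It was -2.41 with an offset of 1 and -2.07 with an offset of 64. Mff, the fission factor, was 1.52-fold higher in RFP+ cells (limma adjusted p = 0.0273), a call lost without the GFP+ array numbered 1 or the RFP+ array numbered 1 or 2.

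The last 2 lists had shares below the 13.8% and 16.2% of all genes called higher in GFP+ and RFP+ cells. Of 12 genes of ubiquinone synthesis, 1 was higher in GFP+ cells and 1 in RFP+ cells (8.33% each, 1 and 2 with the block). These were the hydroxylase Coq7 (1.51-fold higher in GFP+ cells, limma adjusted p = 0.0377) and Coq8a, near background in GFP+ cells (log2 difference -0.64, limma adjusted p = 0.0377), and each call was lost without at least 4 of the single arrays. Of 12 genes of superoxide and peroxide defence, 1 (8.33%) was higher in GFP+ cells (3 with the block) and none in RFP+ cells. It was Txnrd2, the mitochondrial thioredoxin reductase (1.65-fold, limma adjusted p = 0.0102), a call lost without the RFP+ array numbered 3.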

How the data were processed

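Intensity values per probe set were deposited by the authors as 1 table for the 6 arrays, on a linear scale, and were made with Affymetrix Expression Console, per the submitters' processing notes. Its version, background correction, normalization and summarisation are not given in the sources used here. Of 35557 probe sets, 21789 had 1 gene symbol in the platform annotation, 1621 had several and were left out, and 12147 are not named here. The probe set with the highest mean stood for each of 19938 genes. Log2(intensity + 16) was fitted with limma 3.58.1 (lmFit and eBayes, R 4.3.3) over all genes, and Benjamini-Hochberg adjusted p-values under 0.05 were called. The median SE was 0.21, with 15.4 prior degrees of freedom, and 3 arrays a group limit the precision. Files were handled with Python 3.11.15 and pandas 2.3.3.

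The 83 genes and all lists were chosen with earlier results of these data known. Named are, per complex, up to 4 called genes in the majority direction and 2 in the other, plus core subunits and paralogues, and per further list the 2 largest calls each way with 5 regulators; others are named where a setting or value singled them out, after their values were seen. Samples were grouped by title. The numbers in the titles were tested for pairing by the deviations from the group means. These correlated at 0.20, 0.29 and 0.36 for same-numbered GFP+ and RFP+ arrays and at -0.27 to 0.00 for others. Deviations from a group mean cancel within the group. Positive same-number values therefore make the others negative on average, and the others are no separate support for pairing. Because of the same-number values, the fit with the number as a block is given beside the counts and calls named here that it changes. Alternatives were quantile normalization, median centring, leaving out dim genes, offsets of 1 and 64, the mean of probe sets, trended robust moderation, array weights and leaving out arrays. Simulated data had 19938 genes and 3 arrays a group. The test called none of 50 genes changed 1.5-fold, 17 of 50 changed 2-fold and 45 of 50 changed 4-fold. It also called 49 of 50 changed 8-fold and 3 of 19738 unchanged genes. Far fewer genes were changed there than the 5978 called in the data, so the adjusted p was harder to pass. The simulated rates therefore do not carry over to the data, where Ndufc2 was called at 1.49-fold.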

Additional observations from a re-analysis of the deposited data

How the results depend on the processing

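The count of 11 chain genes higher in GFP+ cells was 22 with the replicate block, 17 without the dimmest 50% of genes, 7 with an offset of 1, 20 with an offset of 64, 20 with trended robust moderation and 2 without both arrays numbered 1. It ranged from 3 (without the RFP+ array numbered 3) to 19 (without the GFP+ array numbered 3) on leaving out 1 array. The count of 0 higher in RFP+ cells was 4 with the replicate block, 3 with median centring, 2 without the dimmest 30% of genes, 2 without the dimmest 50%, 2 with an offset of 64, 1 on the mean of probe sets, 2 with trended robust moderation and 1 with array weights, and 0 to 1 on leaving out 1 array. All 11 calls were shared by the blocked fit, which added 15. Of the further lists, 23 genes higher in GFP+ cells became 13 to 24 on leaving out 1 array and 11 without both arrays numbered 1, and 18 higher in RFP+ cells became 10 to 17 and 5. The cause of these changes was not tested. The median log2 difference of the 83 genes stayed positive, between 0.13 (without the RFP+ array numbered 3) and 0.35 (without the GFP+ array numbered 3), under every setting that left out 1 array, and was 0.27 with quantile normalization and 0.19 with median centring. The median of all genes was -0.04 with quantile normalization and -0.12 with median centring. Among the named genes, 1091 values kept their side of the threshold, 84 lost it, 34 passed it and 0 changed sign with a call. Ndufa4l2 was called under every alternative that tested it, being too dim to be tested without the dimmest 50% of genes. Of the 83 genes, 6 were near background in both groups, so the size of their differences, that of Cox6b2 among them, is uncertain.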

Other observations

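COX2 and ND3, mitochondrially encoded subunits of complexes IV and I with named probe sets, were looked at after the values of the nuclear genes were seen. COX2 had 10834, 11595 and 11085 intensity units on the GFP+ arrays, against 13436, 13127 and 15225 on the RFP+ arrays. The groups did not overlap, with RFP+ cells the higher, and the log2 difference was -0.32 ± 0.20 SE (limma adjusted p = 0.238). ND3 had a log2 difference of -0.35 (limma adjusted p = 0.338), with the GFP+ array numbered 1 low at 5178 units.

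Differences of the chain genes were smaller or negative for genes that span more of the genome. By RefSeq gene models (GRCm38.p6), the median log2 difference was 0.31 for 28 genes under 5000 bases, 0.26 for 32 of 5000 to 10000 bases, 0.21 for 12 of 10000 to 20000 bases and -0.18 for 11 of 20000 bases or more. Over all genes with a mean of at least 1000 units the same medians were 0.06, 0.07, 0.05 and -0.13, and over all genes -0.08, -0.08, -0.06 and -0.09. These are descriptions with no test.

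Probe sets shared by a chain gene and another symbol were kept out of the 83. Those of Cox7c and Gm12338 had log2 differences of 0.33 to 0.36 and those of Ndufb4 and Ndufb4b of 0.49 and 0.52.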
